A study of Mus musculus with 3 samples.

Results

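Rab3 and Rab27 are small GTPases that sit on secretory vesicles and, when bound to GTP, recruit effector proteins that bring the vesicle to the plasma membrane and ready it for release. They work in neurons, in endocrine cells such as the pancreatic beta cell, and in exocrine cells, and gut hormone cells release their peptides from granules of this kind. The 10 genes described here are 4 Rab3 paralogs (Rab3a, Rab3b, Rab3c and Rab3d), the Rab27 pair (Rab27a and Rab27b) and 4 effectors or effector partners (Rims2, Rimbp2, Rph3al and Sytl4). They were taken by name, out of 24239 gene symbols with a value in the files, and all 10 could be measured.

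Messenger RNA was sequenced from 3 flow-sorted cell pools of the upper small intestinal epithelium of C57BL/6 mice, with 1 library per sort. GIP-GFP holds cells with a GFP reporter for the incretin hormone GIP. Ngn3-TOMATO and Ngn3-negative are the tomato-positive and tomato-negative cells, without CD45 staining, of male mice that carry Neurogenin3-Cre and a ROSA26 LoxP-STOP-LoxP tomato allele, so tomato marks cells whose progenitors expressed Neurogenin 3, the factor that starts the enteroendocrine lineage. RNA was pooled in equal amounts before each library was made, and the ages and numbers of mice are not given in the sources used here. No library was repeated, so no difference below has a replicate check or a p-value, and the GIP-GFP sort came from another mouse line than the other sorts. Because the RNA is from sorted bulk cells, fewer cells of a type and less RNA per cell cannot be told apart.

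The libraries held 592.1 (GIP-GFP), 1380 (Ngn3-TOMATO) and 1030 (Ngn3-negative) Mb of read bases, as coverage times length summed over transcripts. Values are given as scaled FPKM, the deposited FPKM (fragments per kilobase and unit of library size) summed over the transcripts of a gene and divided by 1 common number, so that levels can be compared between genes per length and ratios between libraries stay as deposited. Ratios are log2 values after 1 was added to each level, and the ranges in brackets are 95% counting intervals from the deposited FPKM limits, which cover counting and read assignment only. The markers followed the sort labels. Gip took 23.2% of the summed gene values in GIP-GFP, 2.64% in Ngn3-TOMATO and 0.0814% for Ngn3-negative. All 6 enteroendocrine markers (Chga, Chgb, Neurod1, Pax6, Isl1 and Rfx6) were 31.1 to 70.7 times as high in Ngn3-TOMATO as in Ngn3-negative, without a pseudocount, and in GIP-GFP they were 2.58 (Chga) to 238.5 (Isl1) times as high. Ngn3-TOMATO was not purely endocrine: 5 goblet and 5 Paneth cell markers (another goblet marker, Fcgbp, had no value in it) were 4.11 to 5.96 times as high in it as in Ngn3-negative, and 0.125 to 0.582 times as high in GIP-GFP as in Ngn3-negative. Leukocyte markers were highest in GIP-GFP, with a sum over 5 genes of 287.7 scaled FPKM against 45.9 in Ngn3-TOMATO and 117.1 for Ngn3-negative. Of these, Gzma, a protease gene of cytotoxic lymphocytes, held 243.2, 36.1 and 94.6 in the same order, and the CD45 gate is stated for the tomato sorts only.

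Which paralog a read came from bears on the values that follow. Between the longest coding transcripts of each pair in GENCODE M21, the longest stretch of identical bases was 17 for Rab3a and Rab3b, 20 for Rab3a and Rab3c, 22 for Rab3b and Rab3c, 27 for Rab3c and Rab3d, 29 for Rab3a and Rab3d and 33 for Rab3b and Rab3d. For Rab27a and Rab27b it was 32. Stretches of like length also joined Rab3 and Rab27 genes, with 27 bases for Rab3d and Rab27b, 20 for Rab3d and Rab27a and 18, mostly a run of T, for Rab3b and Rab27a. Whole transcripts were compared, so a stretch can lie outside the coding sequence and its length is no measure of how close 2 paralogs are. The stretches for 3 of these pairs are shown because reads lying wholly within them could not be told apart. All bases are in capitals since all are shared, and they are written 5′ to 3′ on the coding strand.
Rab3b and Rab3d: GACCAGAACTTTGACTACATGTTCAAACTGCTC
Rab3a and Rab3d: TTTGAGTTCTTTGAGGCCAGCGCCAAGGA
Rab3b and Rab3c: GGACCATCACCACAGCCTACTA

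The promoter windows of the 4 Rab3 genes are printed because these paralogs had different levels across the sorts. Each runs from 250 bases before to 50 after the RefSeq start (GRCm38.p6, the sequence of mm10) and is written 5′ to 3′ on the gene's strand. Capitals mark the letters CANNTG, the E-box core that basic helix-loop-helix factors such as Neurogenin 3 and Neurod1 recognise. CANNTG reads the same pattern on both strands and was found in 72.3% of 32841 mouse promoter windows of 300 bases. Rab3a is at chr8:70754453-70754752 on the plus strand, Rab3b at chr4:108878820-108879119 on the plus strand, Rab3c at chr13:110280157-110280456 on the minus strand and Rab3d at chr9:21918134-21918433 on the minus strand.
Rab3a: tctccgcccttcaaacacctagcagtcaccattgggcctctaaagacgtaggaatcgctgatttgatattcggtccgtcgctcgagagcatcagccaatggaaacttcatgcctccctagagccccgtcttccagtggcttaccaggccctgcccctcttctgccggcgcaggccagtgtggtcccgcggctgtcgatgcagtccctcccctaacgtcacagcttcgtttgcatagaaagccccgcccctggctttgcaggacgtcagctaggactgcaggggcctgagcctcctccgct
Rab3b: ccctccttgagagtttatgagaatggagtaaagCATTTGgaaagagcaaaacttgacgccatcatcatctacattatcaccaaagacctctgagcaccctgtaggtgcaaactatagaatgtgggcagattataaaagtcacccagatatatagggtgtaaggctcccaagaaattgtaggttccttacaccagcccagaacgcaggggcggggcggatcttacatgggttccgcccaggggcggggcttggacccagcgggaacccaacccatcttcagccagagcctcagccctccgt
Rab3c: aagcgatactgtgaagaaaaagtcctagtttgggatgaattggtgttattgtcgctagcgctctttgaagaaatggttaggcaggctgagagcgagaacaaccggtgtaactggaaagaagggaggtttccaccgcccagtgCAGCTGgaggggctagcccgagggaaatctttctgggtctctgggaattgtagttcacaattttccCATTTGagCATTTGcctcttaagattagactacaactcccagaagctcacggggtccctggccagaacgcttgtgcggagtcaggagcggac
Rab3d: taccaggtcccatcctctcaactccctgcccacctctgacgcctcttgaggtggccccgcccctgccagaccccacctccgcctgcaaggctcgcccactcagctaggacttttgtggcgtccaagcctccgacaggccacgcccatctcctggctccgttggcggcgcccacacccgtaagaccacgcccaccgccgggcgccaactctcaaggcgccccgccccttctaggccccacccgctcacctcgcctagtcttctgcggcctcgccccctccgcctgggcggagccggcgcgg

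The CANNTG letters occurred 3 times in the Rab3c window, 1 time in that of Rab3b, and not in that of Rab3d or in the Rab3a window printed. Rab3a has 2 RefSeq starts, and the window of the other, 423 bases from the 5′ end of its main model, held CANNTG 3 times and 22 CpG. The Rab3d window was the richest of the 4 in CpG, with 26 and a GC content of 71.0%, against a median of 7 CpG and 52.7% over all windows. The printed Rab3a window had 18 CpG, Rab3c 11 and Rab3b 8. The TATAAA letters, on either strand, occurred once in Rab3b and in none of the other 3, and in 13.6% of all windows. RefSeq windows were found for 8 members at 10 starts, and 7 of the 10 windows held CANNTG. The narrower forms CATCTG and CAGATG were found in no Rab3 window and, among the 10, only in that of Rimbp2. Of all windows 17.2% held either form. The RefSeq start of Rab3b coincided with the 5′ end of its most abundant transcript model, and those of Rab3a and Rab3d lay 24 and 62 bases from it. For Rab3c it lay 790 bases away, at the 5′ end of the less abundant of 2 models, so the Rab3c window is not that of its main model. A match is only a run of letters, and no binding was measured.

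Rab3d was the most abundant Rab3 transcript in every sort, and the paralogs differed most in Rab3b and Rab3c. Rab3d lies at chr9:21907491-21918192 on the minus strand (mm10). Rab3d, which marks zymogen and other exocrine granules as well as endocrine ones, stood at 179.8 scaled FPKM in GIP-GFP, against 153.7 in Ngn3-TOMATO and 28.1 for Ngn3-negative. Both reporter libraries were thus well above the reporter-negative one, and the log2 ratio to Ngn3-negative was 2.63 (2.55 to 2.72) for GIP-GFP and 2.41 (2.33 to 2.49) for Ngn3-TOMATO. Between GIP-GFP and Ngn3-TOMATO it was 0.22 (0.17 to 0.28). In rank among all genes Rab3d was 744 in GIP-GFP, 885 in Ngn3-TOMATO and 5473 for Ngn3-negative. Rab3a lies at chr8:70754679-70758677 on the plus strand (mm10). Rab3a, the main Rab3 of synaptic vesicles, stood at 28.9, 29.3 and 7.73 scaled FPKM in the same order. Its levels in the reporter libraries overlapped within counting error, with a log2 ratio of -0.02 (-0.25 to 0.21), and they were 3.43-fold and 3.48-fold above Ngn3-negative in GIP-GFP and Ngn3-TOMATO. This near-equality depends on which transcript models are summed, since the Rab3a model uc009mbk.2 held 5.43 scaled FPKM in GIP-GFP and was listed at 0 in the other libraries, and with the most abundant model alone the ratio was -0.31.

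Rab3b lies at chr4:108879063-108943324 on the plus strand (mm10). Rab3b, a paralog found in endocrine and some neural cells, was the member of the family with the highest GIP-GFP level relative to Ngn3-TOMATO. It stood at 31.2 scaled FPKM in GIP-GFP, against 14.1 in Ngn3-TOMATO and 0.324 for Ngn3-negative, the last from about 12.2 fragments as the deposited limits give it. The levels did not overlap between libraries. Its log2 ratio was 4.603 (4.38 to 4.83) for GIP-GFP over Ngn3-negative, 3.51 (3.29 to 3.74) for Ngn3-TOMATO over Ngn3-negative and 1.09 (0.95 to 1.24) for GIP-GFP over Ngn3-TOMATO. Without the pseudocount the level was 96.2 times that of Ngn3-negative in GIP-GFP and 43.5 times in Ngn3-TOMATO.

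Rab3c lies at chr13:110054187-110280996 on the minus strand (mm10). Rab3c, a neuronal and endocrine paralog close to Rab3a, had a different order. It stood at 58.5 scaled FPKM in Ngn3-TOMATO, 1.09 in Ngn3-negative and 0.581 in GIP-GFP, where it rested on about 24.02 fragments. GIP-GFP was thus below even the reporter-negative library for this gene, by a log2 ratio of -0.40 (-0.66 to -0.14). Ngn3-TOMATO was 28.5-fold above Ngn3-negative (log2 4.83, 4.68 to 4.98) and 37.7-fold above GIP-GFP. As a log2 ratio, GIP-GFP over Ngn3-TOMATO came to -5.23 (-5.45 to -5.02), and 0.133% of the 13581 genes compared lay below it. Without a pseudocount Rab3c was 100.8 times as high in Ngn3-TOMATO as in GIP-GFP. Its 2 models, which differ in their 5′ end, were both higher in Ngn3-TOMATO, at 46.2 for uc007rvp.3 and 12.3 for uc007rvo.3 against 0.381 and 0.1997 in GIP-GFP.

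**Figure D1:**
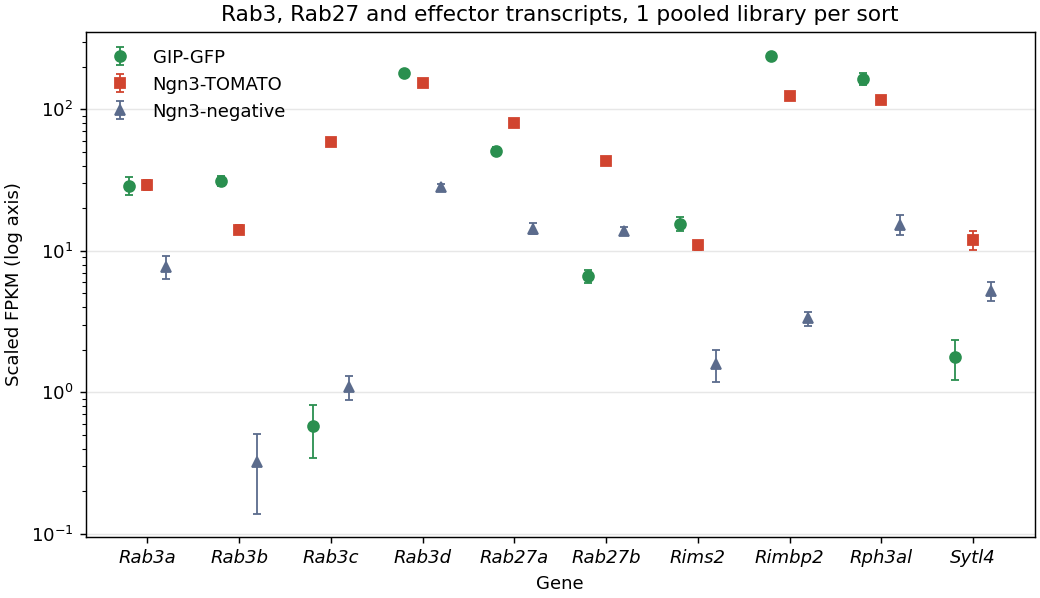
Level of each of the 10 genes in scaled FPKM (log axis) in the GIP-GFP, Ngn3-TOMATO and Ngn3-negative libraries, 1 pooled library each, with bars for the 95% counting interval. Rab3c was at 58.5 in Ngn3-TOMATO and near 1 or below in the other libraries, and Rab3b, Rab3d, Rims2, Rimbp2 and Rph3al were highest in GIP-GFP.

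The make-up of the family therefore differed by sort while its sum was similar in the reporter libraries. Summed over the 4 paralogs, Rab3 transcripts came to 240.5 scaled FPKM in GIP-GFP, against 255.7 in Ngn3-TOMATO and 37.3 for Ngn3-negative. Rab3d made up 74.8% (73.2 to 76.4) of this sum in GIP-GFP, 60.1% (59.3 to 61.0) in Ngn3-TOMATO and 75.5% (72.4 to 78.5) for Ngn3-negative. Rab3c made up 22.9% (22.3 to 23.5) in Ngn3-TOMATO, 2.92% (2.35 to 3.49) in Ngn3-negative and 0.241% (0.143 to 0.340) in GIP-GFP. Rab3b made up 13.0% (12.0 to 13.9) in GIP-GFP, 5.52% (5.13 to 5.91) in Ngn3-TOMATO and 0.869% (0.374 to 1.36) for Ngn3-negative. The share of Rab3a was 12.0% in GIP-GFP and 11.5% in Ngn3-TOMATO, with overlapping intervals, and 20.7% in Ngn3-negative.

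The make-up of the Rab27 pair also differed by sort, but its sum was not similar in the reporter libraries. This sum was highest for Ngn3-TOMATO (122.9 scaled FPKM), lower for GIP-GFP (57.4) and lowest for Ngn3-negative (28.2). Both Rab27 genes were lower in GIP-GFP than in Ngn3-TOMATO. Rab27a lies at chr9:73044854-73097629 on the plus strand (mm10). Rab27a, which holds granules at the plasma membrane in endocrine and blood cells, stood at 80.0 scaled FPKM in Ngn3-TOMATO, 50.7 in GIP-GFP and 14.4 in Ngn3-negative. It was higher in both reporter libraries, with log2 ratios to Ngn3-negative of 2.40 (2.27 to 2.53) for Ngn3-TOMATO and 1.75 (1.60 to 1.90) for GIP-GFP, and its GIP-GFP to Ngn3-TOMATO ratio was -0.65 (-0.75 to -0.54). Rab27b, a paralog of many secretory epithelia and of platelets, stood at 42.9 scaled FPKM in Ngn3-TOMATO, 13.8 in Ngn3-negative and 6.61 in GIP-GFP. GIP-GFP was the lowest library for Rab27b, with a log2 ratio of -2.53 (-2.67 to -2.38) to Ngn3-TOMATO and -0.96 (-1.13 to -0.80) to Ngn3-negative. Rab27a made up 88.5% (87.2 to 89.8) of the summed pair in GIP-GFP, 65.1% (64.1 to 66.1) in Ngn3-TOMATO and 50.9% (48.2 to 53.7) for Ngn3-negative.

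**Figure D2:**
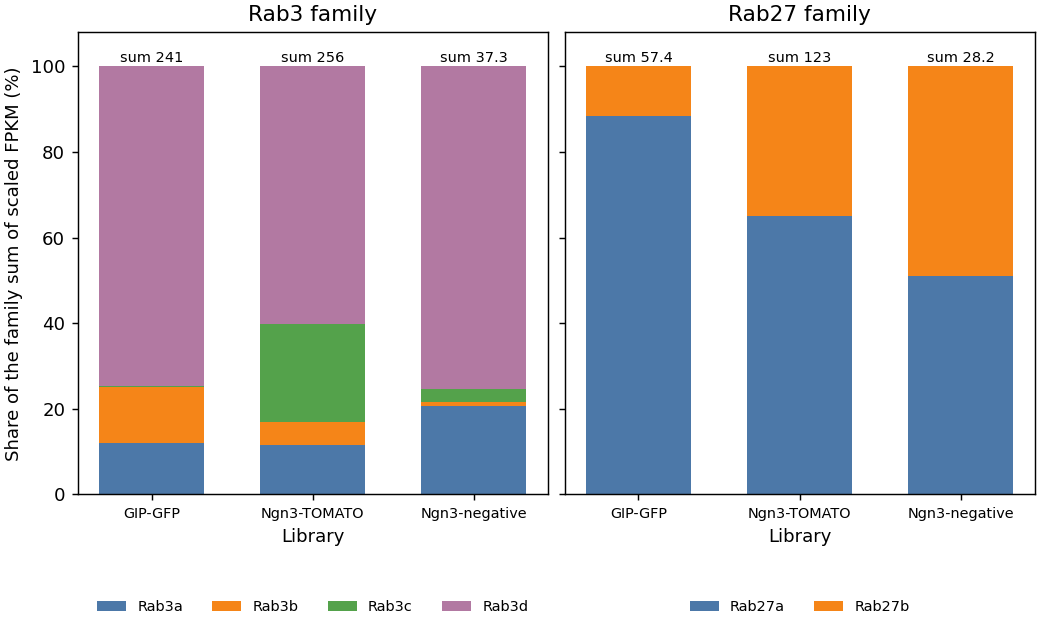
Share of each paralog in the summed scaled FPKM of the Rab3 family (left) and of the Rab27 pair (right) in each library, in percent, with the family sum printed above each bar. The Rab3c segment is 22.9% in Ngn3-TOMATO and 0.241% in GIP-GFP, and the Rab27a segment is largest in GIP-GFP, at 88.5%.

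Among the effectors, Rimbp2 and Rph3al were abundant in both reporter libraries, Rims2 was low, and Sytl4 was lowest in GIP-GFP. Rimbp2 lies at chr5:128757791-128953486 on the minus strand (mm10). Rimbp2, which ties Rim proteins to voltage-gated calcium channels, stood at 236.2 scaled FPKM in GIP-GFP, against 124.3 in Ngn3-TOMATO and 3.33 for Ngn3-negative. It was the highest of the 10 members in GIP-GFP, at rank 530 among all genes. Its log2 ratio to Ngn3-negative was 5.78 (5.64 to 5.91) in GIP-GFP and 4.86 (4.72 to 4.99) in Ngn3-TOMATO, and GIP-GFP was 1.89-fold above Ngn3-TOMATO (log2 0.92, 0.88 to 0.96). All of its signal lay in 1 of 4 transcript models, uc008zsk.2 (mm10 chromosome 5, 128757794 to 128820058), and the 3 models that begin further upstream were listed at 0 in every library. The 5′ end of the model with signal lies 133428 bases from the RefSeq start of the gene. This model is also the longest, at 6952 bases, and reaches further at the 3′ end, to 128757794. The next model stops at 128760401. How reads were divided among the models was not tested.

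Rph3al lies at chr11:75830999-75938429 on the minus strand (mm10). Rph3al encodes Noc2, an effector of Rab3 and Rab27 needed for regulated release in endocrine and exocrine cells. It stood at 164.4 scaled FPKM in GIP-GFP, against 115.9 in Ngn3-TOMATO and 15.3 for Ngn3-negative. Both reporter libraries were above the negative one, by log2 3.34 (3.09 to 3.59) for GIP-GFP and 2.84 (2.61 to 3.07) for Ngn3-TOMATO, and GIP-GFP was above Ngn3-TOMATO by 0.50 (0.35 to 0.65). Rims2 lies at chr15:39198261-39684372 on the plus strand (mm10). Rims2, a Rab3-binding scaffold of the release site that also acts in beta cells, stood at 15.5, 10.9 and 1.59 scaled FPKM across GIP-GFP, then Ngn3-TOMATO, then Ngn3-negative. Its log2 ratio was 2.67 (2.40 to 2.95) for GIP-GFP and 2.20 (1.96 to 2.44) for Ngn3-TOMATO over Ngn3-negative, and 0.47 (0.29 to 0.65) between the reporter libraries. Of 6 Rims2 models 3 had signal. The full-length uc007vod.2 held 9.37, 6.33 and 0.664 in the same order, and the short 3′ model uc007voh.2 held 2.90 in GIP-GFP and 0.622 in Ngn3-negative and was listed at 0 in Ngn3-TOMATO.

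Sytl4 lies at chrX:133936385-133981812 on the minus strand (mm10). Sytl4, or granuphilin, is a Rab27 effector that docks insulin granules in the beta cell. Its levels were low in all sorts, at 12.0 scaled FPKM in Ngn3-TOMATO, 5.22 in Ngn3-negative and 1.78 in GIP-GFP, the last from about 40.3 fragments. The order was thus that of Rab3c and Rab27b and not that of Rab27a, Rph3al or Rimbp2. Ngn3-TOMATO was above Ngn3-negative by a log2 ratio of 1.06 (0.78 to 1.34), and for GIP-GFP the ratio was -1.16 (-1.51 to -0.81) to Ngn3-negative and -2.22 (-2.57 to -1.87) to Ngn3-TOMATO. The position of the first against 2-fold depended on the processing: it was 0.85 with libraries scaled to equal totals and 0.61 with the most abundant model alone.

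In order of level, the members ran in GIP-GFP from Rimbp2 (236.2 scaled FPKM) over Rab3d, Rph3al, Rab27a, Rab3b, Rab3a, Rims2, Rab27b and Sytl4 to Rab3c (0.581). The counting intervals of Rab3d and Rph3al overlapped there, as did those of Rab3b and Rab3a. In Ngn3-TOMATO the order was Rab3d (153.7), Rimbp2, Rph3al, Rab27a, Rab3c, Rab27b, Rab3a, Rab3b, Sytl4 and Rims2 (10.9), with overlap between Rab3b and Sytl4 and between Sytl4 and Rims2. In Ngn3-negative it was Rab3d (28.1), Rph3al, Rab27a, Rab27b, Rab3a, Sytl4, Rimbp2, Rims2, Rab3c and Rab3b (0.324). The intervals of Rph3al, Rab27a and Rab27b overlapped in that library, and so did those of Rims2 and Rab3c.

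Set against the reporter-negative cells, all 10 members passed 2-fold upward in Ngn3-TOMATO, where 19.5% of the 13253 genes compared passed 2-fold upward and 10.1% downward. The median log2 ratio was 2.40 for the members and 0.03 for all genes. The members were named with results of these data in view, so their count is a description. In GIP-GFP 7 of the 10 were at least 2-fold higher than in Ngn3-negative and 1, Sytl4, at least 2-fold lower, with a median of 2.21. The lower count was 0 with a pseudocount of 5 or the most abundant model, and with a filter of 10, which left Sytl4 out. It was 2, with Rab27b, with a pseudocount of 0.1, equal totals or the median ratio. Of the 13344 genes in that comparison 21.2% passed 2-fold upward and 13.8% downward, and their median was 0.07. Between the reporter libraries 1 member, Rab3b, was at least 2-fold higher in GIP-GFP and 3 were at least 2-fold lower, namely Rab3c, Rab27b and Sytl4. Rab3b was under 2-fold with a pseudocount of 5 (log2 0.92). Over all 13581 genes these shares were 8.14% and 8.84%, and the medians were 0.10 for the members and 0.08 for all genes. These 3 comparisons share libraries, so they are not independent of each other. Scaling to equal totals moved the median of all genes for Ngn3-TOMATO over Ngn3-negative from 0.03 to -0.19, and the share of 2-fold differences in the higher direction from 66.0% to 53.6%.

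**Figure D3:**
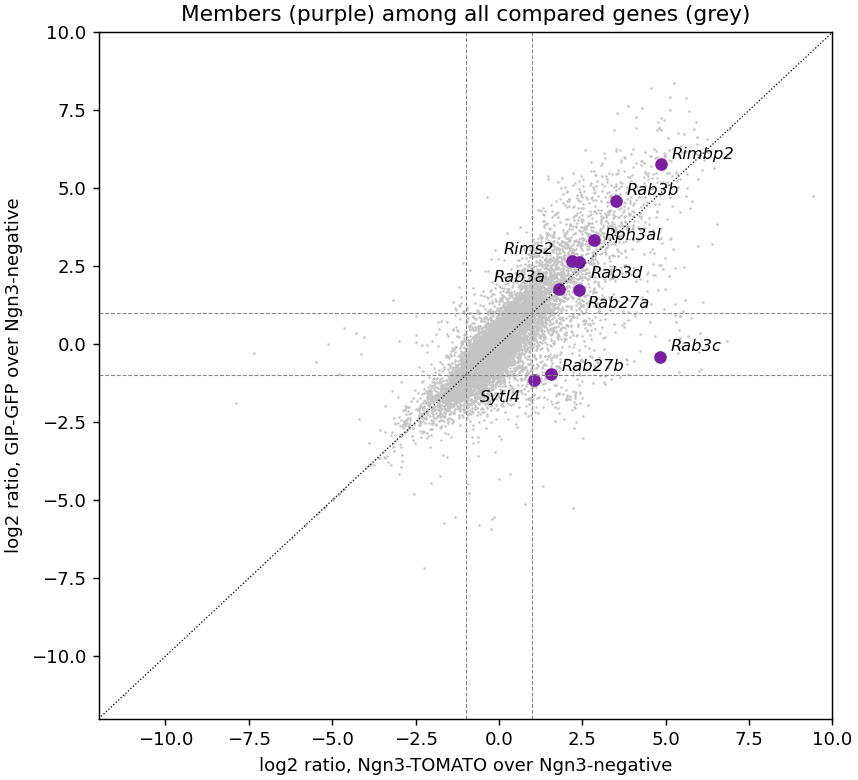
Log2 ratio to Ngn3-negative of each gene in Ngn3-TOMATO (horizontal) and in GIP-GFP (vertical), with the 10 members in purple and all compared genes in grey. The dotted line marks equal ratios and the dashed lines 2-fold. Rab3c, Rab27b and Sytl4 lie far below the dotted line, at vertical values of -0.40, -0.96 and -1.16.

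The members fell into different places beside the cell markers. In Ngn3-TOMATO over Ngn3-negative, without a pseudocount, Rab3c (53.8), Rab3b (43.5) and Rimbp2 (37.3) lay within the range of the 6 enteroendocrine markers, 31.1 to 70.7. The other 7 lay between 2.29 for Sytl4 and 7.56 for Rph3al, and among them Rab27a (5.57) and Rab3d (5.47) lay within the range of the goblet and Paneth markers, 4.11 to 5.96. In GIP-GFP, where the goblet marker sum was 5072 scaled FPKM against 30095 in Ngn3-negative and 167554 in Ngn3-TOMATO, Rab3d and Rab27a were 6.39 and 3.53 times their Ngn3-negative levels. Rab27b, Sytl4 and Rab3c were at 0.478, 0.342 and 0.534 times, beside 0.318 to 0.582 for the 5 Paneth markers and 0.125 to 0.308 for the goblet markers. The 4 tuft cell markers were 1.91 to 2.70 times their Ngn3-negative levels in Ngn3-TOMATO and 0 (Il25) to 0.369 times in GIP-GFP. Sytl4 lay within both of these ranges, at 2.29 and 0.342. The part of goblet, Paneth, tuft or leukocyte RNA in any member's level was not tested. Markers of pancreatic acinar cells, which also use Rab3d and Rab27b, were highest in Ngn3-negative (sum 177.3) and near 0 in GIP-GFP (4.97) and Ngn3-TOMATO (6.11). Mast cell markers summed to 49.4, 39.0 and 11.9 across GIP-GFP, then Ngn3-TOMATO, then Ngn3-negative, most of it Kit, with Ms4a2 at 0 in each, and tuft cell markers to 12.7, 94.5 and 47.5. Enterocyte markers were highest in Ngn3-negative (36023, against 8255 in GIP-GFP and 6443 in Ngn3-TOMATO), as were stem cell markers (2820, 732.7 and 1126). The sums for erythroid cells and platelets were 33.0 in Ngn3-negative, 10.5 in GIP-GFP and 9.21 in Ngn3-TOMATO. Enteric neuron markers summed to 24.1, 6.64 and 0.273 across GIP-GFP, then Ngn3-TOMATO, then Ngn3-negative, of which Rbfox3 held 21.3, 3.42 and 0.0266, while Prph was at 1.36 in Ngn3-TOMATO, 0.196 in Ngn3-negative and 0 in GIP-GFP.

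The other genes of the pathway were less uniform. Of 42 listed genes, 34 could be compared between Ngn3-TOMATO and Ngn3-negative, of which 16 were at least 2-fold higher and 3 lower, namely Ppfia3, Sytl3 and Myo7a (median log2 0.44). Over all genes these shares were 19.5% and 10.1%. Unc13a and Syn1 are among the 16, but both were listed at 0 in Ngn3-negative and no fold is given for them. Of 33 compared between GIP-GFP and Ngn3-negative 10 were higher and 5 lower, namely Rab3gap2, Sytl2, Sytl3, Mlph and Myo7a (median 0.31), beside 21.2% and 13.8% of all genes. Of 36 between GIP-GFP and Ngn3-TOMATO, Pclo and Myo5a were the 2 higher genes and 8 were lower (median 0.11), beside 8.14% and 8.84%. The lower counts against Ngn3-negative and the higher count against Ngn3-TOMATO were near these shares, so they are not a result about the list. Unc13a is also among the 10 higher in GIP-GFP than in Ngn3-negative, where it was listed at 0. Syn1, listed at 0 in GIP-GFP, is among the 8 lower there than in Ngn3-TOMATO. Of the general machinery of the Rab cycle, 2 of 12 genes passed 2-fold upward in Ngn3-TOMATO over Ngn3-negative and none downward, beside 19.5% and 10.1% of all genes, so the count is not a result about this group. Among the higher was Madd, the exchange factor that loads Rab3 and Rab27 with GTP (60.8 against 20.1 scaled FPKM, and 71.3 in GIP-GFP). Gdi2, which takes inactive Rabs off membranes, stood at 343.8 scaled FPKM in Ngn3-negative, 204.6 in Ngn3-TOMATO and 185.5 in GIP-GFP. Rab3gap2, a subunit of the GTPase-activating complex of Rab3, was lower in GIP-GFP (25.8) than in Ngn3-TOMATO (65.2) and Ngn3-negative (59.8).

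The listed release-site scaffolds outside the members were mostly low, as Rims2 was. Rims1, Rims3 and Rims4 were under 1 scaled FPKM in each library, so Rims2 was the most abundant Rim gene in all 3. Pclo, the giant scaffold piccolo, stood at 50.8 scaled FPKM in GIP-GFP, against 18.4 in Ngn3-TOMATO and 0.262 for Ngn3-negative, with log2 ratios to Ngn3-negative of 5.36 (5.24 to 5.48) and 3.94 (3.82 to 4.06) for the reporter libraries. It was also above Ngn3-TOMATO in GIP-GFP, by 1.42 (1.332 to 1.504), as Rab3b and Rimbp2 were. Ppfia1, a liprin of broad expression, was the most abundant listed scaffold gene in Ngn3-TOMATO (28.9) and Ngn3-negative (27.3), and stood at 34.2 in GIP-GFP.

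Sytl2 and Mlph, like Rab27b and Sytl4, were lowest in GIP-GFP. Sytl2, another synaptotagmin-like Rab27 effector, stood at 142.9 scaled FPKM in Ngn3-TOMATO, 28.5 in Ngn3-negative and 8.42 in GIP-GFP, a log2 ratio of -3.93 (-4.16 to -3.71) for GIP-GFP over Ngn3-TOMATO. Mlph, melanophilin, which links Rab27a to a myosin motor in pigment cells, stood at 60.6, 29.1 and 7.93 in the same order, and its ratio was -2.78 (-2.96 to -2.61). Sytl5 instead was similar in the reporter libraries, at 13.7 in GIP-GFP and 12.3 in Ngn3-TOMATO, and low in Ngn3-negative at 0.760. The rabphilin gene Rph3a was listed at 0 in every library, so Rph3al was the measured gene of that pair. Myo7a, an unconventional myosin, was highest in Ngn3-negative, at 31.6 against 13.3 in Ngn3-TOMATO and 12.6 in GIP-GFP. Exph5, a Rab27 effector, was at 16.0, 10.3 and 14.7 across GIP-GFP, then Ngn3-TOMATO, then Ngn3-negative.

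Of the priming factors that Rab3 effectors engage, Unc13b was the most abundant in each library (33.2, 47.5 and 20.2 scaled FPKM across GIP-GFP, then Ngn3-TOMATO, then Ngn3-negative). Unc13a, the main form at synapses, stood at 16.3 and 18.2 in GIP-GFP and Ngn3-TOMATO and was listed at 0 in Ngn3-negative. Syn2, a synapsin that binds Rab3, stood at 22.9 in GIP-GFP, 80.0 in Ngn3-TOMATO and 1.27 for Ngn3-negative. Syn1 was at 16.7 in Ngn3-TOMATO and listed at 0 in both other libraries. Rab37, a related Rab of secretory granules, stood at 69.0, 35.2 and 3.25 across GIP-GFP, then Ngn3-TOMATO, then Ngn3-negative, with log2 ratios to Ngn3-negative of 4.04 (3.78 to 4.30) in GIP-GFP and 3.09 (2.83 to 3.35) in Ngn3-TOMATO.

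**Figure D4:**
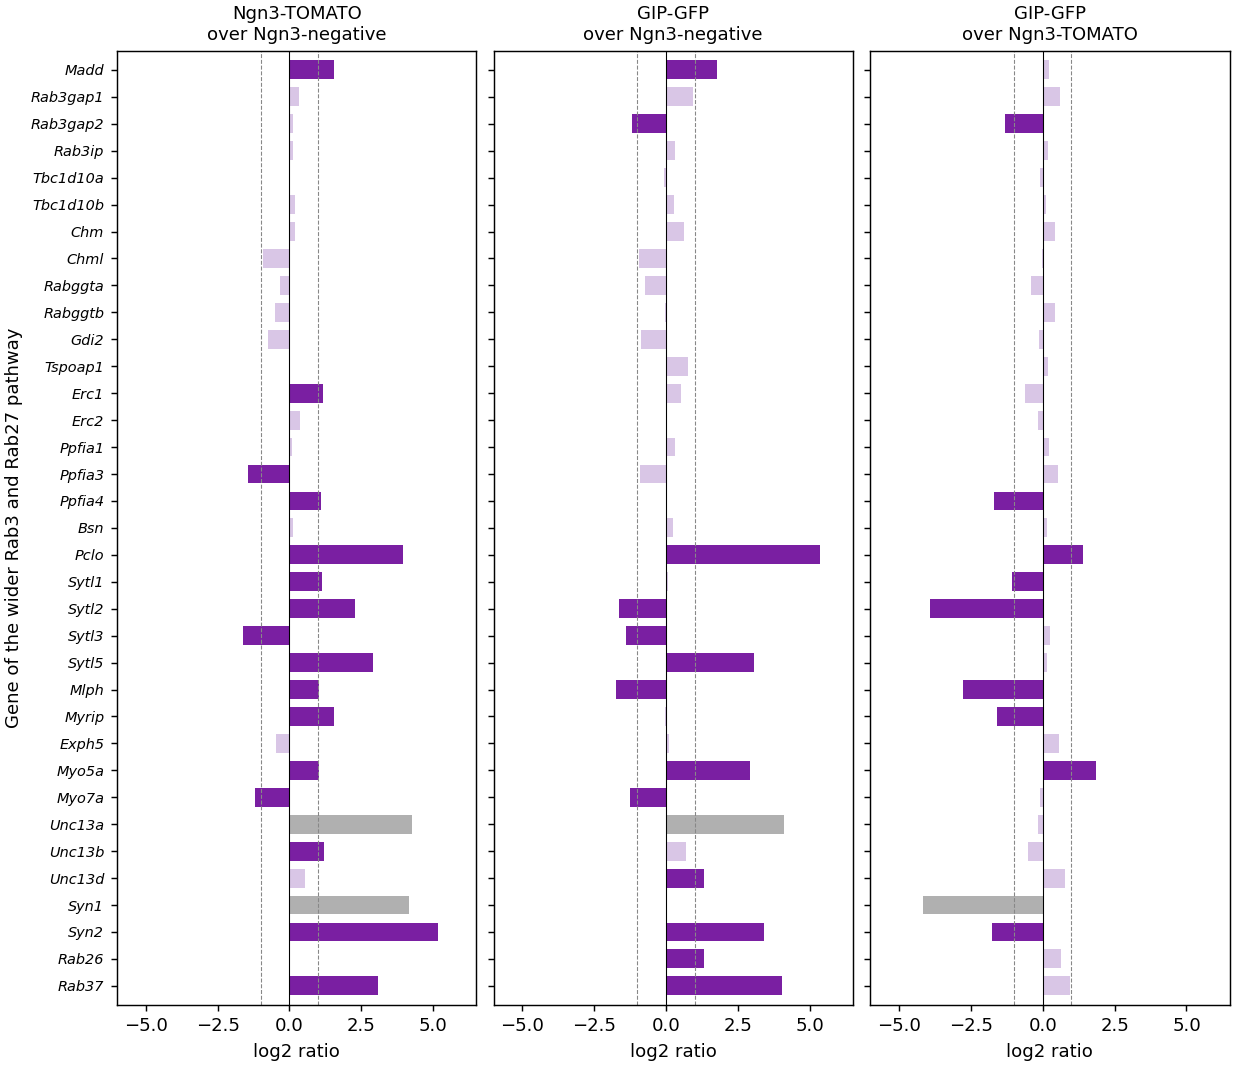
Log2 ratios of genes of the wider Rab3 and Rab27 pathway that are reported here, in each of the 3 comparisons, with dark bars at 2-fold or more, pale bars below it and grey bars where 1 library was listed at 0. Pclo, Sytl5, Syn2 and Rab37 are past 2-fold in both reporter libraries over Ngn3-negative, and Sytl2 and Mlph have the longest dark bars to the left for GIP-GFP over Ngn3-TOMATO.

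Genes with the most similar pattern were found from the distance between log2 levels over the 3 libraries, each centred on its mean, among 10242 genes that reached 10 scaled FPKM in any library. With 3 points many genes lie close: 273 were within a distance of 0.5 of Rab3a and 10 within 0.5 of Rab3c, the most and the fewest among the members. The nearest to Rab3b were Sv2c, a synaptic vesicle protein gene (distance 0.06), and Gfra1, a neurotrophic factor receptor gene (0.07). Nearest to Rab3c was Cwh43, at 75.7 scaled FPKM in Ngn3-TOMATO, 1.75 in Ngn3-negative and 1.32 in GIP-GFP (distance 0.14), followed by Fdft1 (0.30), which was listed at 0 in the other libraries. Ostm1 and Pdzk1ip1 were nearest to Rab3a, and Rap1gap and Dusp3 to Rab3d. For the Rab27 pair they were Lhfpl2 and Camk2n1 (Rab27a) and Lpar3 and Myo5c (Rab27b). Rimbp2 lay nearest to Tpst1 and Celf3, Rph3al to Trp53i11 and Ildr1, Rims2 to Nenf and Cul7, and Sytl4 to Sorl1. All distances other than those printed were 0.03 to 0.13.

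The 10 members had 32 transcript models in the files, 19 of them above 0 in at least 1 library, and every one had the status OK in all 3. Exons of Rab3a share 29 of 2226 bases with Mpv17l2 on the opposite strand, those of Rab3b 317 of 3524 with 8030443G20Rik on the opposite strand, those of Rab27a 149 of 3879 with Gm27186 on the same strand, and those of Rimbp2 34 of 7935 with Gm42875 on the opposite strand. The sources used here do not say whether strand was used in counting, so reads in those bases could belong to either gene.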

How the data were processed

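Each of 59120 UCSC transcript models has, per the file headers of the tables that the authors deposited, its length, its coverage (a signal, the mean read depth per base), its FPKM with a lower and an upper limit, and a status. TopHat 1.5.0, Cufflinks and the build mm10 are named in the submitters' processing notes, and no Cufflinks version is named there. The deposited FPKM summed to 1.02e+10, 1.07e+10 and 1.04e+10 across GIP-GFP, then Ngn3-TOMATO, then Ngn3-negative, so the library term was not the one the name states.

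The files name no genes. Models were matched without strand to GENCODE M21 by their ends (within 10 bases), by an overlap of at least 0.5 of the joint span or by both ends lying in exons of the gene, with length used to choose among transcripts, and 53016 received a symbol. Models of 200 bases or more were summed per symbol, without the mitochondrial chromosome, and divided by 8146 so that the mean library total was 1000000. Models with status HIDATA, or FAIL with a listed 0, were treated as missing, which removed 46, 141 and 112 genes.

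Log2 ratios used a pseudocount of 1 and genes that reached 1 scaled FPKM in either library, which understates differences of low genes. Standard errors were the distance from the FPKM to its upper limit divided by 2, and equivalent fragments the squared ratio of level to error. The ratio and its interval were tested on simulated counts with known folds and counting error only. That simulation does not test the deposited limits or the spread between libraries. With 1 library per group there is no test. Members and lists were chosen with earlier results of these data known. All members are named. Of 42 pathway genes, those 4-fold or more apart with a level of 10 or more, or the most abundant of their group in a library, are named, and a few others (Madd, Rab3gap2, Rims1, Rims3, Rims4, Rph3a, Ppfia3, Sytl3, Myo5a) were chosen after their values were seen. A few genes that these rules name are not reported here. Promoters came from RefSeq (GRCm38.p6). Python 3.11.15, pandas 2.3.3, numpy 2.4.6 and matplotlib 3.10.9 were used.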

Additional observations from a re-analysis of the deposited data

How the results depend on the processing

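With 1 library per group and fragment counts as low as 12.2 (Rab3b in Ngn3-negative) and 24.02 (Rab3c in GIP-GFP), the intervals cover counting error only, and variation between mice was not measured. Over 10 alternatives, 282 of 283 log2 ratios of the members kept their sign, 273 stayed on the same side of 2-fold and 219 stayed within the counting interval. These counts include alternatives that could not move any member's ratio, namely no filter, a filter of 10 and models of every length. A filter only selects genes, and no member model fell below the length limit, so these alternatives repeated the main ratios by construction. The most abundant model alone also repeated the ratios of Rab3b, Rab3d, Rab27a and Rimbp2, each with signal in 1 model. It did so in single comparisons for Rab3a and Rab27b. Shared ends repeated the ratios of Rab3b and Rab27a, and that of Rab3a in Ngn3-TOMATO over Ngn3-negative. The share of all these repeats in the counts is therefore no check of the ratios. The exception in sign was Rab3a in GIP-GFP over Ngn3-TOMATO, from -0.02 to 0.00 with equal library totals. No paired analysis was possible because each group has 1 library. Requiring both transcript ends to be shared with GENCODE left only 5 members (Rab3a, Rab3b, Rab27a, Rph3al and Sytl4).

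For Ngn3-TOMATO over Ngn3-negative, the members at least 2-fold higher were 4 of those 5 with both ends shared, and their median log2 ratio was 1.99 with a pseudocount of 5 and 2.17 with equal totals. Sytl4 was under 2-fold with a pseudocount of 5 (0.73), equal totals (0.85), the most abundant model (0.61) and both ends shared (0.88). Pathway genes at least 2-fold higher were 16 of 34 in the report, 10 of 34 with a pseudocount of 5 or equal totals and 10 of 20 with both ends shared. Those lower were 3 of 34, 1 of 34 with a pseudocount of 5 and 1 of 20 with both ends shared. The pathway median was 0.65 with a pseudocount of 0.1, 0.28 with a pseudocount of 5, 0.29 with equal totals and 0.84 with both ends shared. Without the 20 most abundant genes of each library in the totals, 72.9% of 2-fold differences were higher.

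For GIP-GFP over Ngn3-negative, 4 of 5 members were higher with both ends shared. The members at least 2-fold lower numbered 2 with a pseudocount of 0.1, equal totals or the median ratio, as Rab27b moved to -1.05, -1.16 and -1.04. They numbered 0 with a pseudocount of 5, a filter of 10 (8 members left, without Sytl4) or the most abundant model. Sytl4 was at -0.59 with the pseudocount of 5 and -0.86 with that model. The members' median was 1.58 with a pseudocount of 5, 2.65 with a filter of 10 and 1.75 with both ends shared. Pathway genes lower were 5 of 33 in the report, 8 of 34 with equal totals and 2 of 18 with both ends shared, and the medians under those alternatives were 0.093 and 0.58. The share of 2-fold differences that were higher was 60.5%, 50.9% with equal totals and 67.5% without the top genes.

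For GIP-GFP over Ngn3-TOMATO, no member was at least 2-fold higher with a pseudocount of 5 (0 of 10, Rab3b at 0.92). With both ends shared 1 of 5 members was lower, and the members' median was -0.31. Pathway genes higher were 2 of 36 in the report, 1 of 26 with a filter of 10 and 1 of 21 with both ends shared. Those lower were 8 of 36, 5 of 36 with a pseudocount of 5 and 5 of 21 with both ends shared. The filter of 10 and the shared ends compare fewer genes by construction, and the cause of the other moves was not tested.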
